A study of Mus musculus with 5 samples.

Results

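The genes described here are the EGF receptors and ligands of the mouse with 1 feedback inhibitor, 10 genes in all: the receptors *Egfr*, *Erbb2* and *Erbb3*, the ligands *Areg*, *Ereg*, *Epgn*, *Btc*, *Tgfa* and *Hbegf*, and the inhibitor *Errfi1*. A ChIP-seq peak was counted for a gene when its centre lay in the gene body or within 10 kb of it, or when the nearest start of a protein-coding gene was that gene's. By this rule the 10 genes, of 22380 protein-coding genes, held 37 of the 21270 SOX11-FLAG peaks and 2 of the 2669 SOX4-FLAG peaks. The peaks came from primary mouse keratinocytes of the genotype Krt14-Cre;Sox11fl/fl;Sox4fl/fl (dcKO) labelled as of mixed 129SvEx:C57BL/6 background (the Krt14-Cre line in the cross was FVB/N), into which a lentivirus with doxycycline-inducible, FLAG-tagged *Sox11* or *Sox4* had been introduced. There were 2 SOX11-FLAG libraries, 2 SOX4-FLAG libraries and 1 control library, titled input with IgG as its antibody, all from this genotype. The tagged factors were thus induced in cells that lack both endogenous genes, where Cre is driven by the keratin 14 promoter of basal keratinocytes. Each factor has 1 list that combines both replicates and gives the position of each peak without height or score. The depth behind a peak is therefore unknown, no spread between replicates can be given, and no value below carries a test. A region that is missing from a list cannot be called unbound. Peak lists hold no expression values, so the cell type could not be checked against marker genes.

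The EGF ligands are made as membrane-bound precursors, released by proteases such as ADAM17, and bind receptors of the ERBB family on the same or neighbouring cells. The receptors pair on ligand binding and signal through the RAS-MAPK and PI3K-AKT pathways. ERBB2 has no known ligand of its own and ERBB3 has very weak kinase activity, so both work chiefly in pairs with other receptors. In the epidermis these signals drive keratinocyte proliferation and migration, wound closure among them. ERRFI1 binds the kinase domain of the receptors and blocks it, and its gene is itself switched on by EGF signalling.

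Both regions of these genes that were on the SOX4 list were also on the SOX11 list. This is common in the SOX4 list, which holds 2669 peaks: 2522 SOX11 peaks overlapped one of them. Both regions are shown whole, as the only listed ones of these genes at which peaks of the 2 factors overlap. The factors were profiled in separate libraries. The *Tgfa* peak lies in an intron at chr6:86172344-86172601 and the *Errfi1* peak lies upstream of the gene at chr4:150199679-150199936 (mm9, plus strand, as both genes are read). Capitals mark the 6-letter SOX core (CATTGT or CTTTGT, either strand) in *Tgfa* and the 8-letter SOX motif (CATTGTTC, CATTGTCC, CTTTGTTC or CTTTGTCC, either strand) in *Errfi1*.
Tgfa intron, SOX11 and SOX4: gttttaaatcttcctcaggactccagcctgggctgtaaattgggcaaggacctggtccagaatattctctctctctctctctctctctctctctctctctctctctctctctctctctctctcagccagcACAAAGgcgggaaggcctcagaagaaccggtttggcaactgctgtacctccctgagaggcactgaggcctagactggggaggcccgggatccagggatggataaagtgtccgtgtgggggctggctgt
Errfi1 upstream, SOX11 and SOX4: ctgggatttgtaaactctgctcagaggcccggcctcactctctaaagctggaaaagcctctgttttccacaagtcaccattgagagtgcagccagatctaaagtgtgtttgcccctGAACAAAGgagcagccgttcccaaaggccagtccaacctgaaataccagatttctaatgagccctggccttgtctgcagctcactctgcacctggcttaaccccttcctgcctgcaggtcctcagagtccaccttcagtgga
The *Tgfa* peak held no 8-letter motif, and its core was 4.5 bp from the centre of the SOX11 peak. The *Errfi1* motif was CTTTGTTC on the minus strand, 8.5 bp from the SOX11 centre and 62.5 bp from the SOX4 centre. Such matches describe the letters of the region and do not show that a factor sat on them.

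For 7 of the 8 genes without a shared peak, all but *Hbegf*, the stretch shown is from the SOX11 peak that comes earliest in the list. It is given on the strand of the gene and leaves out bases of exons, so the peaks at starts are cut at the first exon. The stretches are chr11:16744298-16744333 in an intron of *Egfr*, chr11:98273608-98273783 before the *Erbb2* start, chr10:128026709-128026922 before the *Erbb3* start (minus strand), chr5:91543808-91543892 upstream of *Areg*, chr5:91503832-91503961 in the *Ereg* intron from the end of an exon onwards, chr5:91466958-91467058 downstream of *Epgn* and chr5:91712147-91712247 downstream of *Btc* (minus strand). Capitals mark the 8-letter SOX motif and an AP-1 core (TGAGTCA or TGACTCA) in *Areg*, an AP-1 core in *Erbb3*, and the 6-letter SOX core in *Egfr* and *Epgn*.
Egfr intron: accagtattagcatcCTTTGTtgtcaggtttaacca
Erbb2 promoter: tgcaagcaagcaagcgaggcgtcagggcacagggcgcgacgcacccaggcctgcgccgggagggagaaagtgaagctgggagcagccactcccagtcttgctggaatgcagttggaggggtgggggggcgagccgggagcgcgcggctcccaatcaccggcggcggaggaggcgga
Erbb3 promoter: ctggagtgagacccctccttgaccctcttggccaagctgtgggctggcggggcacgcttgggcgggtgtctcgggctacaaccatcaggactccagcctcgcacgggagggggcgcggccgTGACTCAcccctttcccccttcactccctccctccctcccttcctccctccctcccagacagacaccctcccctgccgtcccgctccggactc
Areg upstream: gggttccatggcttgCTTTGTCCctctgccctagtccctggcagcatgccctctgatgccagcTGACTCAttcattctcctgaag
Ereg intron: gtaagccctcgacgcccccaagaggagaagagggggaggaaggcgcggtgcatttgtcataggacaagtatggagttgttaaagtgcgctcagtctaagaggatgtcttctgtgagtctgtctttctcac
Epgn downstream: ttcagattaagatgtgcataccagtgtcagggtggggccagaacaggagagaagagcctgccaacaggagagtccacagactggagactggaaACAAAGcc
Btc downstream: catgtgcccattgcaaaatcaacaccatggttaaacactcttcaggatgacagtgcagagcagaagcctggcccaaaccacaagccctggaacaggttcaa
The stretches of *Erbb2*, *Ereg* and *Btc* held no SOX motif or core, AP-1 core, GC box or TEAD core (AGGAATG). The *Erbb2* stretch does hold GGAATG, the shorter TEAD form that was searched as an alternative. The *Ereg* peak has a CTTTGT core, 7.5 bp from its centre, that falls in the exon and is not shown.

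Several peaks of these genes hold motifs in pairs or more, and not all of them are printed. A further 4 stretches were chosen from these after the motif search. They are a second *Areg* peak at chr5:91585878-91585960 with an AP-1 core and a SOX motif, a second *Ereg* peak at chr5:91512272-91512340 with 2 AP-1 cores, an *Egfr* peak at chr11:16730738-16730778 in which an AP-1 core and the SOX core CATTGT overlap by 2 bases, and an *Errfi1* peak at chr4:150245531-150245788 with 3 TEAD cores (AGGAATG, either strand). All are on the plus strand, with the motifs in capitals.
Areg downstream: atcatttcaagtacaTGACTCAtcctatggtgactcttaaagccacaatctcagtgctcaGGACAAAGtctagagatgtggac
Ereg intron, farther peak: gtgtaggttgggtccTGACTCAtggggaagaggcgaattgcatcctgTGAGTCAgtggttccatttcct
Egfr intron, overlapping cores: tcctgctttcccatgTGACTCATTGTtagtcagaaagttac
Errfi1 downstream: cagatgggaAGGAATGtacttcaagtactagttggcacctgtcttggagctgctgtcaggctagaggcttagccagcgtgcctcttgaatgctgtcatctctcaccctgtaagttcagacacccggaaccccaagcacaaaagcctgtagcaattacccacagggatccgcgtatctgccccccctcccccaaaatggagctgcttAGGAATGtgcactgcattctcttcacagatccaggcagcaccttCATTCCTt
Of all SOX11 peaks, 0.320% had an AP-1 core that overlaps CATTGT in this way, 4.04% had 2 or more AP-1 cores, and 0.0470%, or 10 peaks of the whole list, had 3 or more TEAD cores. Among the 37 peaks of the genes described here, 1 had each of these arrangements. AP-1 is the family of FOS and JUN dimers that growth factor signals induce, and the TEAD proteins are the DNA-binding partners of YAP and TAZ. A GC box (CCCCGCCC, either strand), letters that SP factors bind, was searched as well.

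Every one of the 10 genes had a SOX11 peak, beside 57.0% of all protein-coding genes. A SOX4 peak was listed for 2 of the 10 (*Tgfa* and *Errfi1*), beside 13.0% of all genes, and a SOX11 peak that overlaps a SOX4 peak for the same 2, beside 12.3%. At least 5 SOX11 peaks were found at 4 of the 10 genes, beside 4.62% of all genes: *Egfr* had 6, and *Areg*, *Epgn* and *Errfi1* had 5 each. This count depends on the rule: with the gene body and 10 kb alone it was 1 of the 10 (*Egfr*), beside 1.92% of all genes, and in the first 50% of the list it was 1 (*Epgn*), beside 1.51%. *Tgfa* had 4 SOX11 peaks, *Erbb2*, *Ereg* and *Hbegf* had 3 each, *Erbb3* had 2 and *Btc* had 1. The median was 3.5 SOX11 peaks per gene among the 10, 1 among all genes and 2 among the genes that had any.

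**Figure D1:**
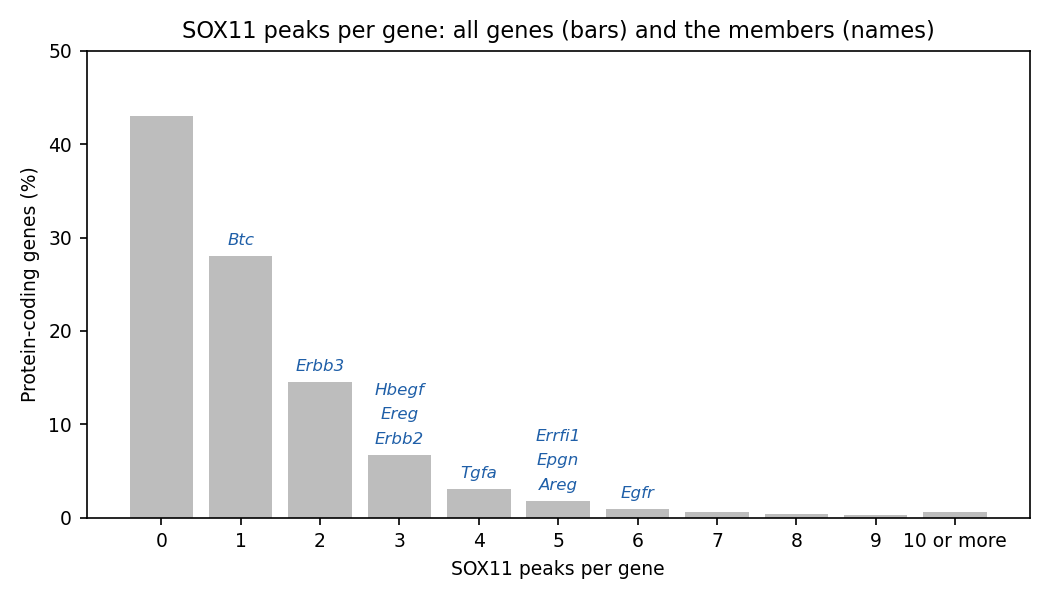
Share of all 22380 protein-coding genes (bars, %) by the number of SOX11 peaks per gene, with each EGF receptor, ligand or inhibitor gene named above its number. The genes run from 1 peak (Btc) to 6 peaks (Egfr), and none is among the genes with 0.

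The rule gives more ground to a gene that is long or has distant neighbours, so the counts were also set against the length of genome from which each gene draws its peaks. That length was 98.8 kb at the median of the 10 genes and 57.1 kb at the median of all genes. Over the 10 genes together there were 31.25 SOX11 peaks per Mb of it, beside 9.10 per Mb over all genes. The value for all genes is their summed peaks over their summed lengths. The density was above it at 9 of the 10. The share of all genes above it was not computed, so this count has no comparison. It was highest for *Hbegf* at 73.8 per Mb, *Epgn* at 69.7 and *Erbb2* at 66.3, and lowest for *Egfr* at 20.1 and *Btc* at 5.29. *Egfr*, which had the most peaks, was therefore the next to lowest per length, and *Btc* was the only gene below the value for all genes.

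A SOX11 peak was centred within 500 bp of a start of the gene itself at 7 of the 10 genes, beside 25.2% of all genes. The exceptions were *Areg*, *Btc* and *Tgfa*, all of them ligands. The centre lay 48 bp upstream of the start for *Erbb2*, 49 bp upstream for *Epgn*, 74 bp upstream for *Hbegf* and 85 bp upstream for *Erbb3*. It lay 110 bp downstream of an internal start for *Errfi1*, 189 bp downstream for *Ereg* and 313 bp downstream for *Egfr*. The 25.2% includes genes without any SOX11 peak: of 22380 genes, 12753 had one anywhere and 5636 had one this close. All 10 genes here had a peak. Counted by peak, 8 SOX11 peaks of these genes lay within 500 bp of the nearest start of any gene, and 29 lay farther. In the whole list these counts were 5382 and 15888, so by peak there was no excess close to starts. The limit of 500 bp and the limit of 5 peaks were chosen with the values in view. The 7 peaks close to a start of the gene itself had a median GC content of 69.0%, and all SOX11 peaks within 500 bp of a start had 65.1%. *Epgn* stood at 46.1% and *Ereg* at 57.0%, while the other 5 ranged from 65.9% (*Egfr*) to 76.4% (*Errfi1*). The 30 remaining peaks had a median of 51.6%, beside 49.2% for all SOX11 peaks farther from a start.

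**Figure D2:**
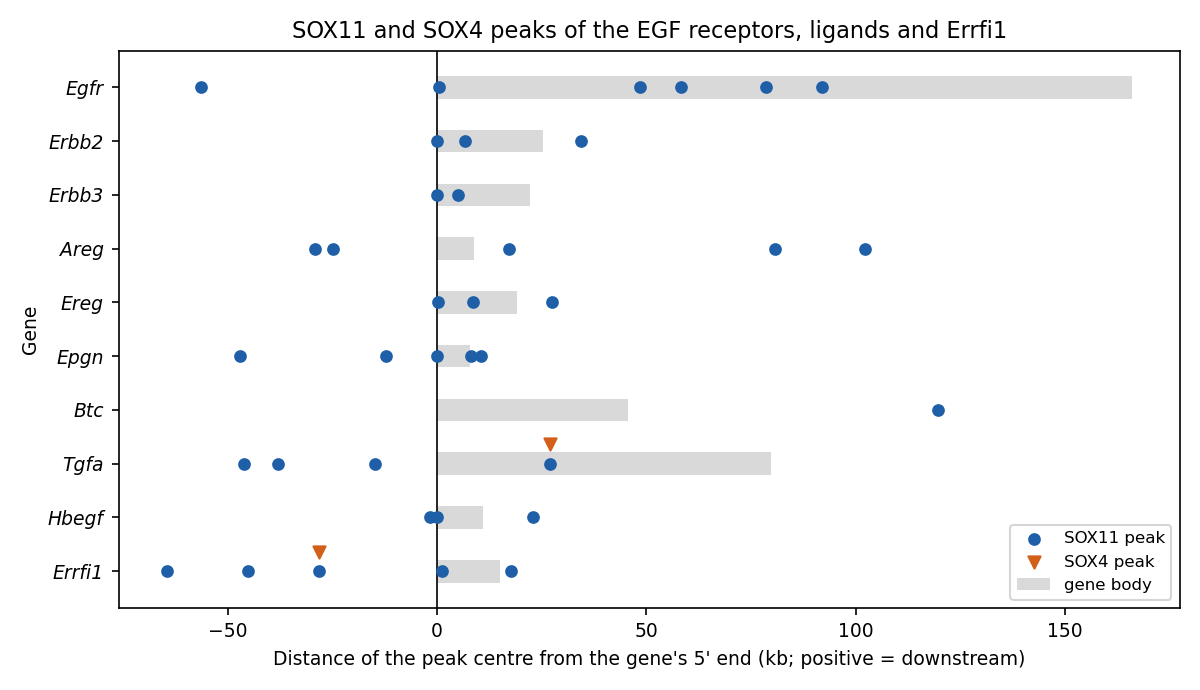
Distance of each peak centre from the 5′ end of its gene (kb, positive downstream), 1 row per gene, with the gene body as a grey bar, SOX11 peaks as blue circles and SOX4 peaks as orange triangles. The SOX11 peaks reach from 64.6 kb upstream (Errfi1) to 119.7 kb downstream (Btc), and both SOX4 peaks stand above a SOX11 peak.

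*Egfr*, the receptor that all 6 of these ligands bind, runs from 16652206 to 16818161 on the plus strand of chromosome 11. Its 6 SOX11 peaks were 1 upstream, 1 in the first part of the gene and 4 in introns. The upstream peak, chr11:16595658-16595915, was 56.4 kb before the 5′ end and number 20081 of the list, the latest of all 37, and held an AP-1 core. The peak at the start, chr11:16652418-16652675, was centred in a coding exon and was number 12568. The intron peaks were centred 48.5, 58.2, 78.5 and 92.1 kb into the gene. The farther into the gene they lay, the earlier they came in the list, at number 10620, then 9527, 7383 and 2822. The nearest start for the pair at 48.5 and 58.2 kb was that of the predicted gene *Gm17664*, and both were counted because they lie in the *Egfr* body. The nearest SOX4 peak was 1048 kb from any *Egfr* start, the longest such distance of the 10 genes.

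*Erbb2*, the receptor without a ligand, lies on chromosome 11 from 98273784 to 98299030 on the plus strand. Its promoter peak, chr11:98273608-98273865, was number 8333, and a peak 6.62 kb into the gene, chr11:98280276-98280533, was number 13182. The third, chr11:98308145-98308402, was 9.24 kb past the end of *Erbb2* but only 89 bp from a start of *Grb7*, which encodes an adaptor that binds ERBB2. This peak was the one closest to the edge of the 10 kb window on its inner side. Another *Grb7* peak, chr11:98309167-98309424, was 10.3 kb past the end of *Erbb2* and was not counted for it. *Erbb3*, which passes signals to PI3K, lies on chromosome 10 from 128004579 to 128026708 on the minus strand. It had a promoter peak, chr10:128026665-128026922, at number 13779 and an intron peak 5.07 kb into the gene, chr10:128021512-128021769, at number 14931. *Erbb3* was the only gene of the 10 with all its SOX11 peaks in the last 50% of the list. An AP-1 core stood in 4 of the 11 SOX11 peaks of the receptors, beside 28.5% of all SOX11 peaks. Of the 4 peaks, 3 were at *Egfr* and 1 at the *Erbb3* promoter, where the core was 5 bp from the peak centre.

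The ligands epigen (*Epgn*), epiregulin (*Ereg*), amphiregulin (*Areg*) and betacellulin (*Btc*) are neighbours on chromosome 5, with no other protein-coding gene between them. From the 5′ end of *Epgn* at 91456490 to that of *Btc* at 91831939 the cluster spans 375 kb. It held 11 SOX11 peaks and no SOX4 peak, a density of 29.3 SOX11 peaks per Mb beside 7.93 over chromosome 5 and 8.06 over all chromosomes with peaks. The SOX4 list is sparse on this scale, with 1.01 peaks per Mb over the same chromosomes. The closest SOX4 peak, chr5:91360367-91360706, is nearest to the start of *Mthfd2l*, the gene next to *Epgn*, and was 96.0 kb from the *Epgn* start.

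**Figure D3:**
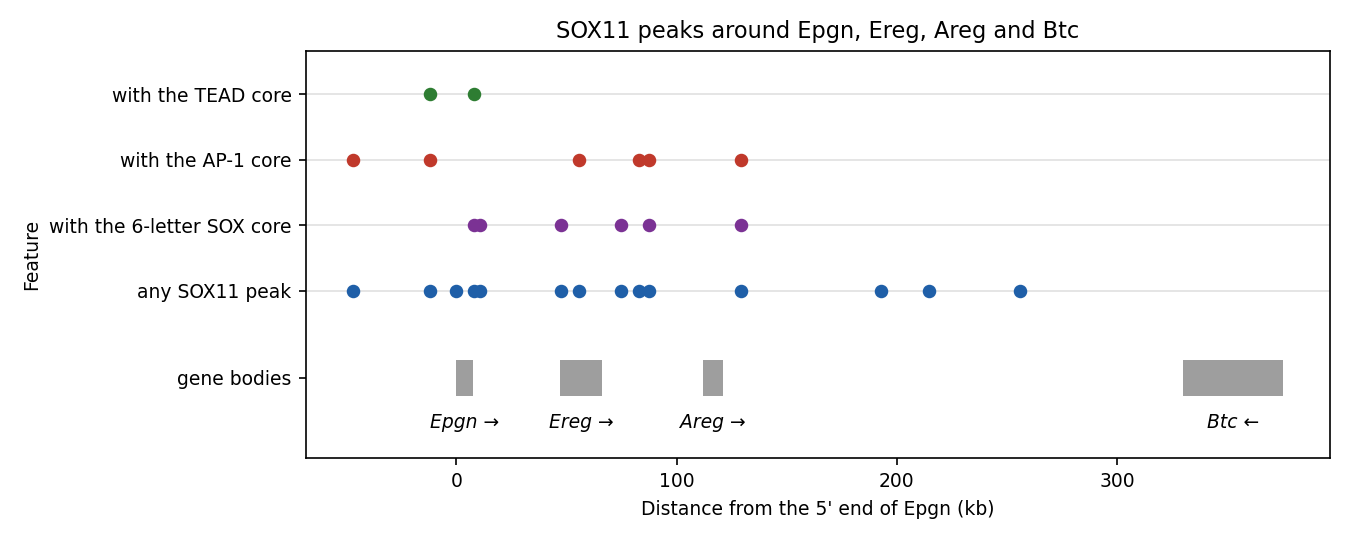
Positions of the 14 SOX11 peaks of Epgn, Ereg, Areg and Btc by distance from the 5′ end of Epgn (kb), with the gene bodies as grey bars, arrows for the direction of each gene, and separate rows for peaks that hold the 6-letter SOX core, the AP-1 core or the TEAD core. The peaks gather around Epgn, Ereg and Areg, and the 3 peaks nearest to Btc have none of these cores.

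*Epgn* (91456490 to 91464241, plus strand) had 5 SOX11 peaks. Those 47.1 and 12.1 kb upstream, chr5:91409300-91409557 and chr5:91444266-91444523, lie in introns of *Mthfd2l*, a mitochondrial folate enzyme gene, and were numbers 10090 and 4271. The promoter peak, chr5:91456313-91456570, was number 9765. The other two, chr5:91464372-91464629 and chr5:91466880-91467137, lie 0.259 and 2.77 kb past the end of the gene and were the earliest of the 5, at numbers 3087 and 1664. An AP-1 core stood in both upstream peaks, and a TEAD core in the peak at 12.1 kb and in the peak just past the gene end. In the first of these the TEAD core and the AP-1 core had 23 bases between them.

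*Ereg* (91503643 to 91522675, plus strand) had 3 SOX11 peaks. The peak at its start, chr5:91503704-91503961, was number 1303. The intron peak 8.59 kb into the gene, chr5:91512108-91512365, was number 9617 and had 2 AP-1 cores with 25 bases between them. The peak beyond the gene, chr5:91530893-91531150, was 8.35 kb past its end, at number 5635, and held 2 SOX cores. *Areg* (91568641 to 91577458, plus strand), a ligand that keratinocytes themselves secrete, had 5 SOX11 peaks and none in its body or promoter. They lay 29.1 kb upstream (chr5:91539380-91539637, number 6676), 24.8 kb upstream (chr5:91543693-91543950, number 3929), and 17.3 kb (chr5:91585805-91586062, number 10091), 80.8 kb (chr5:91649357-91649614, number 18487) and 102 kb (chr5:91670743-91671000, number 14702) downstream of the start. The 3 nearest to the gene each had an AP-1 core and the 2 farthest had none. The peaks at 24.8 kb upstream and 17.3 kb downstream were the only ones of the 37 with both the 8-letter SOX motif and an AP-1 core. In each the SOX motif was CTTTGTCC on its own strand and the AP-1 core was TGACTCA on the plus strand. Between them were 40 bases in the upstream peak and 38 in the downstream peak. Read along the SOX motif, the AP-1 core was TGACTCA in the upstream peak and TGAGTCA in the downstream peak. The SOX motif was 5.5 and 8.5 bp from the peak centre, on opposite strands.

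*Btc* (91786287 to 91831939, minus strand) had a single SOX11 peak, chr5:91712069-91712326, at number 7700. It was 119.7 kb downstream of the *Btc* start and 74.1 kb past the end of the gene, the farthest from its gene body of any but 1 of the 37. That one was the *Areg* peak at 102 kb, which was 93.4 kb from the *Areg* body. Among the 14 SOX11 peaks of the 4 neighbouring ligands, 6 had an AP-1 core, beside 28.5% of all SOX11 peaks. All 6 belonged to *Epgn*, *Ereg* or *Areg*, but *Btc* had only 1 of the 14 peaks. This count therefore does not set *Btc* apart.

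*Tgfa*, which encodes transforming growth factor alpha, a main ligand that keratinocytes make for EGFR, lies on chromosome 6 from 86145420 to 86225151 on the plus strand. Its intron peak, 27.1 kb into the gene at chr6:86172344-86172601, was number 85 of the SOX11 list, the earliest of the 37. The SOX4 peak over it, chr6:86172310-86172649, was number 336 of that list, and the centres were 0.007 kb apart. The 3 other SOX11 peaks were all upstream: chr6:86099043-86099300 at 46.2 kb (number 1665), chr6:86107261-86107518 at 38.0 kb (number 5322) and chr6:86130566-86130823 at 14.7 kb (number 6374). The peak at 38.0 kb had a GC box and the peak at 14.7 kb a TEAD core. No *Tgfa* peak had an AP-1 core or the 8-letter SOX motif.

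*Hbegf*, which encodes the heparin-binding EGF-like factor released at wound edges, lies on chromosome 18 from 36664583 to 36675459 on the minus strand. Its promoter peak, from 36675405 to 36675662, was number 4249 and held 2 overlapping GC boxes. A peak 1.65 kb upstream of the start, from 36676979 to 36677236, was number 2802 and held a 6-letter SOX core. The peak 23.0 kb downstream of the start, from 36652368 to 36652625, was 12.1 kb past the end of the gene, was number 1675 and held a TEAD core 4 bp from its centre. None of the 7 SOX11 peaks of *Tgfa* and *Hbegf* had an AP-1 core, beside 28.5% of all SOX11 peaks. A count over 7 peaks is too small to set these genes apart. The nearest SOX4 peak was 229 kb from the *Hbegf* start.

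*Errfi1*, the inhibitor, lies on chromosome 4 from 150228028 to 150243001 on the plus strand and had 5 SOX11 peaks, 3 upstream, 1 in the gene and 1 beyond it. The upstream peaks were 64.6 kb (chr4:150163296-150163553, number 19791), 45.2 kb (chr4:150182736-150182993, number 9041) and 28.2 kb (chr4:150199679-150199936, number 1451) before the 5′ end. The last of them overlapped the SOX4 peak chr4:150199692-150200031, number 985 of its list, with the centres 0.054 kb apart. The peak in the gene, chr4:150229164-150229421, was centred in a UTR exon 110 bp after an internal start, at number 17657, and its GC content of 76.4% was the highest of the 37. The peak with 3 TEAD cores, chr4:150245531-150245788, was 2.66 kb past the gene end at number 5632. Its cores were 116, 81 and 125 bp from the centre, so none was within 50 bp of it. *Errfi1* and *Tgfa* were the only genes with a SOX4 peak, and at both the shared peak was the earliest SOX11 peak of the gene.

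An overlap with a SOX4 peak was found for 2 of the 37 SOX11 peaks (5.41%, 95% Wilson interval 1.5 to 17.7%), beside 11.9% of all SOX11 peaks. The 8-letter SOX motif stood in 3 of the 37 (8.11%, 2.80 to 21.3%), beside 19.9%, and the 6-letter SOX core in 14 (37.8%, 24.1 to 53.9%), beside 58.5%. The AP-1 core stood in 11 of the 37 (29.7%, 17.5 to 45.8%), close to the 28.5% of the whole list. Both the SOX motif and the AP-1 core stood in 2 (5.41%), beside 5.01%. The TEAD core stood in 5 (13.5%, 5.91 to 27.98%), beside 10.6%, and the GC box in 2 (5.41%), beside 10.7%. A promoter, taken as 1 kb upstream to 100 bp downstream of a start, held 5 of the 37 (13.5%), beside 23.3%. The whole-list share of the 6-letter SOX core was outside the interval of these genes, and the other whole-list shares were inside. The difference depends on how the motif is written: a 10-letter SOX motif with 1 mismatch allowed stood in 16 of the 37 (43.2%), beside 47.3% of the list. The intervals cover counting over peaks only, and peaks of a gene are not replicates. Several features were compared as well, so a share inside or outside an interval is a description and not a test.

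**Figure D4:**
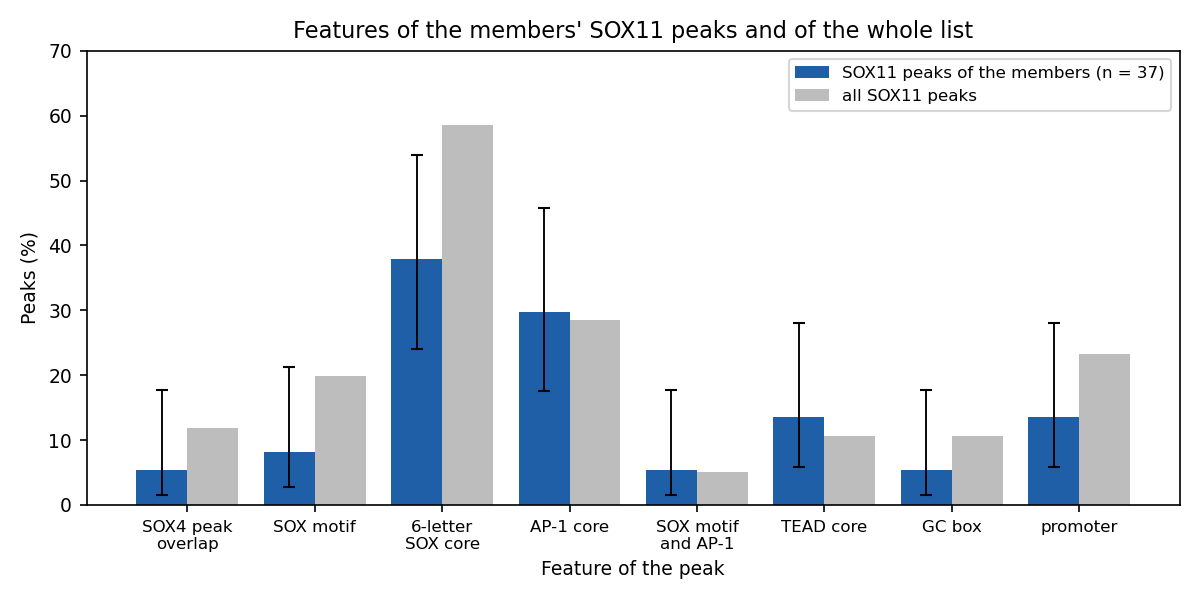
Share of SOX11 peaks (%) with each feature, for the 37 peaks of the EGF receptors, ligands and Errfi1 (blue, with 95% Wilson intervals as bars) and for all 21270 SOX11 peaks (grey). The 6-letter SOX core is at 37.8% against 58.5%, and the AP-1 core at 29.7% against 28.5%.

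AP-1 cores are uncommon at starts in the list as a whole, so the 37 peaks were also split by distance to the nearest start of any gene. Among the 29 that were more than 500 bp away, 10 had an AP-1 core (34.5%), beside 36.4% of all such SOX11 peaks. Among the 8 within 500 bp, the *Erbb3* promoter peak alone had it, beside 5.39% of all such peaks. Away from starts the AP-1 share of these genes was thus close to that of the list. The genes with at least 1 AP-1 core in a SOX11 peak were 6 of the 10: *Egfr*, *Erbb3*, *Areg*, *Ereg*, *Epgn* and *Errfi1*. The same share over all protein-coding genes was not computed, so this count only names the genes.

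The files do not say what their order means. In the SOX11 list, 62.0% of the first 10% of peaks overlapped a SOX4 peak and 2.02% of the last 10% did. The SOX motif stood in 46.3% of the first 10% and in 15.5% of the last. The 37 peaks ran from number 85 to number 20081 with a median of 7700, beside 10635.5 for the whole list, and 28 of them were in the first 50%. All peaks of *Ereg*, *Epgn*, *Btc*, *Tgfa* and *Hbegf* were in that part. The first 10% held 6 of the 37: the shared *Tgfa* and *Errfi1* peaks, the *Ereg* start peak, the farther *Epgn* downstream peak, the *Tgfa* peak 46.2 kb upstream and the *Hbegf* downstream peak. Of these 6, 2 overlapped a SOX4 peak. The other 4 were near each other in the list, from number 1303 to number 1675.

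**Figure D5:**
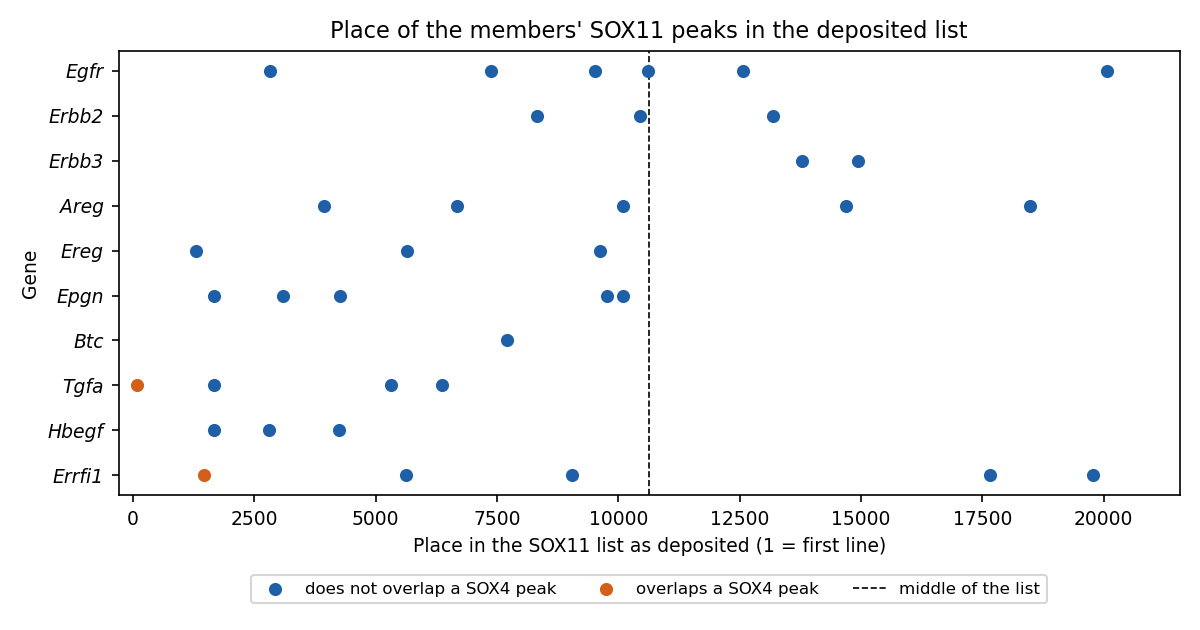
Place of each SOX11 peak in the deposited list (x axis, 1 is the first line), 1 row per gene, with peaks that overlap a SOX4 peak in orange, the others in blue, and the middle of the list as a dashed line. The shared peaks are number 85 (Tgfa) and number 1451 (Errfi1), and both Erbb3 peaks lie right of the middle.

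The rule also decides between neighbours. The *Ereg* peak 8.35 kb past that gene's end and the *Areg* peak 16.8 kb past it are neighbours, and the second went to *Areg* because the *Areg* start was nearer. The nearest SOX11 peak that was not counted lay 19.0 kb from *Hbegf* (nearest start *Slc4a9*), 33.0 kb from *Egfr* (*Fbxo48*), 37.2 kb from *Erbb3* (*Rps26*), 40.8 kb from *Errfi1* (*Park7*) and 49.7 kb from *Tgfa* (*Fam136a*).

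Among 62 other genes of the pathway, 55 had a SOX11 peak (88.7%) and 14 had a SOX4 peak (22.6%), beside the 57.0% and 13.0% of all genes given above. A SOX11 peak within 500 bp of a start was found at 41 of the 62. By role, SOX11 peaks were found at 4 of 6 remaining receptor and ligand genes, 3 of 4 shedding and trafficking genes, 12 of 13 adaptor genes, all 13 inhibitor genes, 9 of 11 RAS-RAF-MAPK genes, 6 of 7 PI3K-AKT genes and all 8 PLC and STAT genes. A SOX11 peak within 500 bp of a start was found at 0 of the 6 remaining receptor and ligand genes and at 12 of the 13 inhibitor genes, beside the 25.2% of all genes, and the difference between roles was not tested. The most SOX11 peaks were at *Lrig1* (9), a membrane protein that lowers receptor levels, *Nrg1* (8) and *Nrg2* (7), neuregulin ligands of ERBB3 and ERBB4, *Ptpn1* (7), a phosphatase of the receptors, and *Prkca* (7), a protein kinase C.

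A SOX4 peak was listed for the receptor *Erbb4*, the ligands *Nrg1* and *Nrg2*, the sheddase *Adam17* and its trafficking partner *Rhbdf2*, the adaptor *Eps15*, the inhibitors *Lrig1* and *Socs4*, the RAS-MAPK genes *Nras*, *Araf* and *Ptpn11*, and *Akt1*, *Plcg1* and *Src*. *Lrig1* had 3 SOX4 peaks, *Nrg1* had 2 and the rest had 1 each. Every one of the 14 genes had as many SOX11 peaks that overlap a SOX4 peak as it had SOX4 peaks. That is near the whole lists, where 2522 SOX11 peaks overlapped one of the 2669 SOX4 peaks. The earliest SOX11 peak was number 17 of the list for *Src*, a kinase beside the receptors, number 91 for *Plcg1*, a direct effector of EGFR, and number 204 for *Lrig1*. Among the 10 receptors, ligands and *Errfi1*, only the *Tgfa* peak at number 85 was that early.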

How the data were processed

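The deposited files were 2 lists of peak coordinates, 1 for SOX11-FLAG and 1 for SOX4-FLAG. The authors aligned the reads to mm9 (Bowtie2), dropped duplicate reads (Picard), ran HOMER findPeaks in its factor style and took out blacklisted regions (bedtools). Tool versions, peak thresholds and the control given to HOMER are not given in the sources used here. Starts were read as 0-based. Genes, starts and exons came from GENCODE M1 and sequence from NCBIM37, the assembly of mm9, with protein-coding genes only. Peaks were placed by centre, and lists overlapped at 1 bp or more. Motifs were counted on both strands of the whole peak. Python 3.11.15, numpy 2.4.6, pandas 2.3.3, scipy 1.17.1 (Wilson intervals), pysam 0.24.0 and matplotlib 3.10.9 were used, and the functions were checked on simulated data. All 10 genes and all their peaks are named, as are other pathway genes with a SOX4 peak or, up to 6, with the most SOX11 peaks, short of a tie. Genes, lists and limits were chosen with earlier results of these data known. Alternatives changed the gene window, the assignment, the overlap, the motif letters, the promoter bounds, the transcripts used or the length of list kept. No peak list of the control library was analysed here.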

Additional observations from a re-analysis of the deposited data

How the results depend on the processing

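Of 75 values recomputed for 14 results, 56 stayed within 1.5 times the reported count or within 1 SD of the median place, 5544 places. The SD is that of the places of the 37 peaks, and the count of 10 genes with a SOX11 peak could not rise. These limits are wide, so 56 of 75 is a description and not a measure of stability. With the gene body and 10 kb alone, without the nearest start, SOX11 peaks fell from 37 to 22, and SOX4 peaks, genes with a SOX4 peak and shared peaks each from 2 to 1, since the *Errfi1* pair is 28.2 kb upstream. This setting and the 100 kb limit each left 9 genes with a SOX11 peak, without *Btc*. The first 50% of each list also left 9, without *Erbb3*. The shares of all genes with a SOX11 or SOX4 peak were not computed under these settings. These gene counts therefore cannot be set against the 57.0% and 13.0% of the main rule. Allowing 1 mismatch moved AP-1 cores from 11 peaks to 27, beside 66.9% of all peaks, and a search within 50 bp of the centre to 5, beside 14.9%. SOX motif peaks went from 3 to 14 with the 6-letter core (37.8%, beside 58.5%) and to 16 with the 10-letter motif and 1 mismatch (43.2%, beside 47.3%). Peaks with both motifs went from 2 to 4 with the 6-letter core (10.8%, beside 17.2%) and to 1 near the centre, and TEAD peaks from 5 to 9 with GGAATG (24.3%, beside 22.8%) and to 3 near the centre (8.11%, beside 4.603%). Promoter peaks went from 5 to 8 with 1 kb to each side (21.6%, beside 28.9%) and to 9 with 2.5 kb upstream to 500 bp downstream (24.3%, beside 29.1%). Other pathway genes with a SOX4 peak went from 14 to 24 with 50 kb and to 8 in the first 50%. The share of all genes under these settings was not computed, so neither count can be set against the all-gene share of the main rule. In alternatives chosen after seeing the data, genes with at least 5 SOX11 peaks went from 4 to 7 with 50 kb. That stood beside 14.2% of all genes. The count went to 1 with the gene body and 10 kb alone and in the first 50%. Using only transcripts typed protein-coding, also chosen after seeing the data, moved neither the genes with a peak nor the peaks of either factor. No other count was recomputed with those transcripts. No paired analysis was possible because each list pools both replicates, and for that reason no replicate was left out. Depth is unknown, so absent peaks, most of all SOX4 peaks, set no upper limit on binding.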
